A study of Mus musculus with 8 samples.

Results

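The transcripts of 10 C-type lectin receptors were described in microglia sorted from brains at postnatal day 60, of mice with and without a deletion of *Smad2* and *Smad3*. They were *Cd207*, *Clec4n*, *Clec7a*, *Clec4a1*, *Clec4a2*, *Clec4a3*, *Clec12a*, *Clec4d*, *Clec4e* and *Clec10a*, and all 10 were found among the 55573 genes counted, by their Ensembl identifiers. These receptors were selected on their CPM and log2 fold changes between mutants and controls in these same mice, so their levels and fold changes are given as a description and without p-values. The study compared 4 mice lacking *Smad2* and *Smad3* in microglia, of the genotype Smad2/3 fl/fl;Cx3cr1Cre, with 4 littermate controls, with 1 library for each labelled sample, taken here as 1 mouse each. The labels call the controls wild-type, whereas the Methods describe control mice in general as carrying Cre and 1 floxed allele, so the exact control genotype is not settled and both groups may carry the Cre insertion. SMAD2 and SMAD3 are the transcription factors activated by TGFβ receptors, and Cre expressed from the *Cx3cr1* locus acts in microglia and in related macrophages, not in microglia alone.

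C-type lectin receptors are membrane proteins whose outer domain shares a fold first known for binding sugars in the presence of calcium, and myeloid cells use them to recognise fungal, bacterial and self glycans. Activating members either carry a tyrosine motif of their own or borrow one from the adaptor FcRγ, encoded by *Fcer1g*, and pass the signal to the kinase SYK and the adaptor CARD9. Inhibitory members carry a cytoplasmic motif that recruits phosphatases such as SHP-1, encoded by *Ptpn6*, and SHIP-1, encoded by *Inpp5d*. Langerin, encoded by *Cd207*, is an endocytic receptor best known from Langerhans cells, the macrophage-like cells of the epidermis, in which it forms the Birbeck granules. *Clec7a*, which encodes dectin-1, is widely used as a marker of microglia that have left their homeostatic state.

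In GENCODE M21 on GRCm38, the mm10 build to which the reads were aligned, 9 of the 10 genes lie on chromosome 6. *Cd207* stands alone at 83671215 to 83677857 on the minus strand. The *Clec4* cluster holds *Clec4a1* (122921848 to 122934619), *Clec4a3* (122952515 to 122969875), *Clec4a2* (123106428 to 123143999), *Clec4n* (123229843 to 123247021) and *Clec4d* (123262111 to 123275265) on the plus strand and *Clec4e* (123281789 to 123289870) on the minus strand. *Clec12a* (129342691 to 129365303, plus strand) and *Clec7a* (129461591 to 129472779, minus strand) lie further along the same chromosome, with *Clec12b*, *Clec1b*, *Clec9a* and *Clec1a* between them. *Clec10a* lies on chromosome 11 at 70156197 to 70170834 on the plus strand. The longest coding sequences run from 630 bases in *Clec4n* to 996 bases in *Cd207*. *Clec4a2* and *Clec4a3* were the most alike, with 76.8% identical bases where their coding sequences align, and *Clec4a1* and *Clec12a* the least, with 57.1%.

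Because the compared mice differ in the transcription factors SMAD2 and SMAD3, the 250 bases before the annotated start were read for the members that the RefSeq promoter table (GRCm38.p6) holds, which are 8 of the 10. Both strands were searched for the SMAD palindrome GTCTAGAC, the shorter SMAD element CAGAC, the PU.1 sequence GAGGAAGT, the AP-1 sequence TGANTCA, the E-box CACGTG and the IRF sequence of GAAA followed after any 2 bases by GAAA, and no match of one motif lay over a match of another. *Cd207* is shown because its transcript differed most between the groups and its window held an AP-1 and a CAGAC match, and *Clec4e* because its transcript differed least and its window also held a CAGAC match. *Clec4a1* is shown as a member whose window held no match to any of the 6 motifs. All 3 are written 5′ to 3′ in the direction of the gene, capitals mark the motif matches (GTCTG is CAGAC on the other strand), and no annotated exon of GENCODE M21 lies in them.
Cd207, chr6:83677858-83678107, minus strand: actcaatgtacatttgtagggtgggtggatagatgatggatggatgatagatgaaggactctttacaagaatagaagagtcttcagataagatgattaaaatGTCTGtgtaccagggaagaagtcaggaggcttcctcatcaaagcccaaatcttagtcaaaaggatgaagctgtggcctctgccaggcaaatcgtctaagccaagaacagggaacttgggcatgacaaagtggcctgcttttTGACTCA
Clec4e, chr6:123289872-123290121, minus strand: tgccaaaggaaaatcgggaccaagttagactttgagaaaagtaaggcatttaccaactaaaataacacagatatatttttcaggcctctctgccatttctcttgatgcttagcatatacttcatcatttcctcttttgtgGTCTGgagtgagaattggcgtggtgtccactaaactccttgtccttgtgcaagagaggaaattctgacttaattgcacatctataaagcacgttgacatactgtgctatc
Clec4a1, chr6:122921598-122921847, plus strand: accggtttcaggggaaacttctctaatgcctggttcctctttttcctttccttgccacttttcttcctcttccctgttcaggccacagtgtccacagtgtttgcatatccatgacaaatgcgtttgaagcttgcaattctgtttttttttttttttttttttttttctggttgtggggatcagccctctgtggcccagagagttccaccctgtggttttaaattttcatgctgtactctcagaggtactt
The AP-1 match in *Cd207* ends at the base before the annotated start, with its first base at -7, and the CAGAC match begins at -148. The CAGAC match in *Clec4e* begins at -110. *Clec12a* was the only other member with a match, with AP-1 at -213 and CAGAC at -21, and 1 annotated exon of GENCODE M21 overlaps its window. Windows with a TGANTCA match made up 6.75% of the 32851 promoters in the table, and those with a CAGAC match 42.2%. No member's window held GTCTAGAC (0.167% of all promoters), GAGGAAGT (2.44%), CACGTG (6.02%) or the IRF sequence (2.98%). These matches are letters in a window and say nothing of binding.

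Between 35639502 and 41946479 reads per library were counted on genes, and 20153 genes that reached 10 counts in 4 or more libraries were tested. Levels are given as CPM, the counts scaled to library size after TMM correction, as mean ± SD over 4 mice per group where a mean is given. *Smad3* fell in the mutants, from 39.4, 56.8, 49.0 and 49.2 CPM in the controls to 15.04, 9.60, 35.1 and 17.5 CPM (log2 fold change -1.33, SE 0.36, edgeR adjusted p = 0.0429), and 7 of the 8 fits that left out 1 mouse lost this call (adjusted p from 0.00432 to 0.11). *Smad2* did not pass the test (-0.34, SE 0.22, adjusted p = 0.34), and the *Smad3* level of mutant 3 stood closest to the controls. Gene counts cover whole transcripts, so they do not read the floxed exons alone. Transcripts of *Xist*, expressed from the inactive X chromosome of females, were at 99.3 to 183 CPM in the controls and at 0.0276 to 0.561 CPM in the mutants. *Ddx3y*, a gene of the Y chromosome, was at 0.0269 to 0.224 CPM in the controls and at 9.73 to 59.7 CPM in the mutants. These genes divide the mice exactly as the genotype does, so in every comparison below genotype and sex cannot be told apart.

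Of the 10 members, 8 met the threshold of an adjusted p-value under 0.05 over all tested genes, all of them higher in the mutants, where 12.3% of all tested genes were called and 4.36% were called higher. In 9 of the 10 members every mutant lay above every control, which held for 9.04% of all tested genes. Nothing is read from these counts, since this contrast chose the members. The median log2 fold change of the 10 members was 2.79, and that of all tested genes was 0.011. In bulk samples, more cells of a type and more RNA per cell cannot be told apart.

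**Figure D1:**
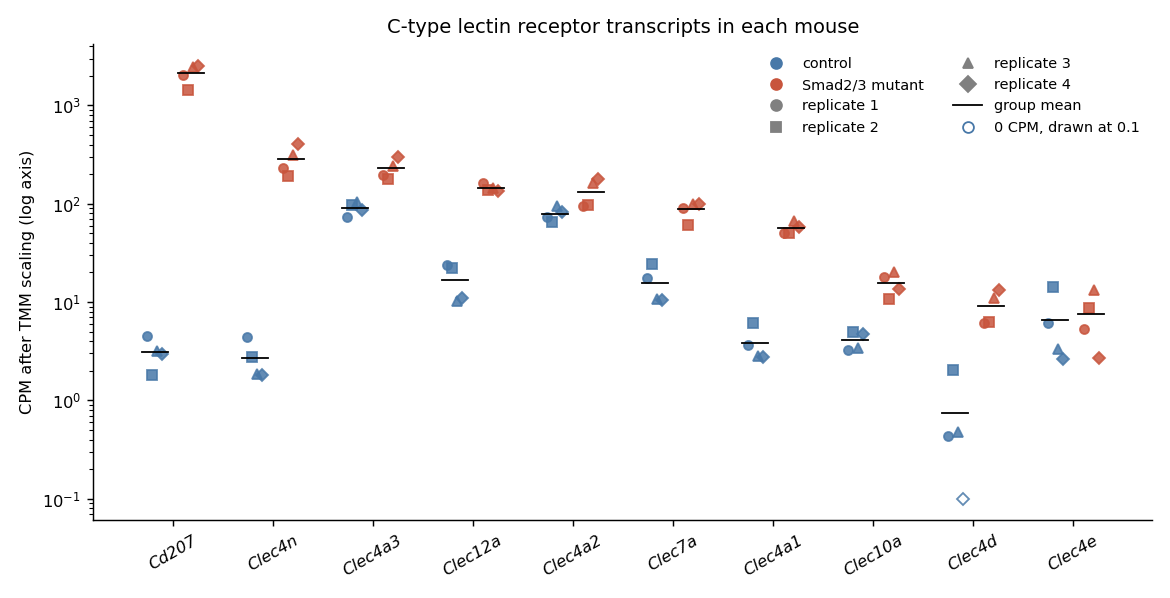
CPM after TMM scaling, on a log axis, of the 10 receptors in each of the 4 control mice (blue) and 4 *Smad2/3* mutant mice (red), with the mouse number as the symbol, the group mean as a black line and the single level of 0 (*Clec4d*, control 4) drawn open at 0.1. The groups are separate for every receptor except *Clec4e*, and *Clec4a2* is separate by the smallest distance.

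*Cd207* had the largest difference of the 10. It was at 4.54, 1.82, 3.16 and 2.96 CPM in the controls and at 2027, 1426, 2468 and 2540 CPM in the mutants. The lowest mutant stood 314-fold above the highest control, and the log2 fold change was 9.40 (SE 0.41). The control levels rested on 70 to 176 counts per library and the mutant levels on 66110 to 92113, so neither group rested on single reads. Whether the control counts came from langerin expression in the sorted cells was not tested. Among the mutants the highest level was 1.78-fold the lowest, which is narrow beside the distance between the groups.

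*Clec4n*, *Clec7a* and *Clec4e* encode dectin-2, dectin-1 and Mincle, which bind fungal α-mannans, fungal β-glucans and mycobacterial glycolipids, and *Clec4d* encodes the partner receptor of Mincle. *Clec4n* was at 4.44, 2.76, 1.84 and 1.80 CPM in the controls and at 228, 190, 312 and 408 CPM in the mutants, a log2 fold change of 6.71 (SE 0.43). All mutants were far above all controls, and the lowest of them stood 42.8-fold above the highest control. *Clec7a* was at 17.7, 24.4, 10.7 and 10.5 CPM in the controls and at 91.2, 60.4, 99.5 and 99.4 CPM in the mutants, with a log2 fold change of 2.47 (SE 0.32). Its control levels formed a higher pair (mice 1 and 2) and a lower pair, and mutant 2 was the lowest mutant while still 2.48-fold above the highest control.

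*Clec4d* was the least abundant receptor in the controls, at 0.44, 2.03, 0.48 and 0 CPM, and was at 6.17, 6.28, 11.1 and 13.2 CPM in the mutants. In reads these were 112 counts over the 4 controls and 1406 over the 4 mutants, a ratio after scaling of 12.001 with an exact 95% interval of 9.89 to 14.7 that covers counting error only. Its log2 fold change of 3.63 had the widest standard error of the 10 (1.02), and its call was lost in 9 of the 13 alternative fits that tested it, 6 of which left out 1 mouse (log2 fold changes over all such fits from 3.26 to 4.90). The fits that left out control 2, which gave the value of 4.90, or control 4 kept the call. *Clec4e*, which lies next to *Clec4d*, was at 6.09, 14.3, 3.33 and 2.66 CPM in the controls and at 5.29, 8.80, 13.2 and 2.67 CPM in the mutants. The groups covered the same range, the log2 fold change was 0.18 (SE 0.63), and it ran from -0.24 to 0.89 as single mice were left out, so a difference of either sign could not be resolved.

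*Clec4a1*, *Clec4a2* and *Clec4a3* encode receptors of the DCIR group, of which the *Clec4a2* product carries an inhibitory motif. *Clec4a1* was at 3.67, 6.19, 2.85 and 2.77 CPM in the controls and at 50.5, 50.6, 67.0 and 57.4 CPM in the mutants (log2 fold change 3.86, SE 0.30). The mutants were close together, the highest being 1.33-fold the lowest, and all lay far above the controls. *Clec4a3* was already well expressed in the controls, at 74.1, 96.4, 103 and 86.7 CPM, and was at 196, 178, 244 and 301 CPM in the mutants (1.35, SE 0.20). *Clec4a2* was at 73.9, 65.7, 93.9 and 81.8 CPM in the controls and at 94.6, 96.1, 163 and 179 CPM in the mutants (0.76, SE 0.24). Mutants 1 and 2 lay just above control 3, the lowest mutant being 1.01-fold the highest control, while mutants 3 and 4 stood apart. *Clec4a2* missed the threshold, and met it in 5 of the 14 alternative fits, among them DESeq2 and the fit without mutant 1 (log2 fold change of up to 0.89).

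*Clec12a*, which encodes an inhibitory receptor for uric acid crystals, was at 23.7, 22.2, 10.3 and 10.9 CPM in the controls and at 162, 139, 146 and 133 CPM in the mutants (log2 fold change 3.11, SE 0.31). It had the most even mutant levels of the 10, with the highest 1.22-fold the lowest, and its controls were split into the same higher and lower pairs of mice as for *Clec7a*. *Clec10a*, which encodes a macrophage receptor for galactose-type sugars, was at 3.23, 4.92, 3.44 and 4.78 CPM in the controls and at 17.9, 10.8, 20.4 and 13.6 CPM in the mutants (1.94, SE 0.29). All mutants lay above all controls, the lowest of them 2.19-fold above the highest control. Of its 50-base words 9.02% also occur in transcripts of other genes, most of them in its neighbour *Mgl2*, so part of its reads could be assigned to either gene. The same share was 6.83% for *Clec4a2*, mainly with *Clec4a4*, was under 1% for *Clec4n* and *Clec12a*, and was 0 for the other 6 members.

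No mutant was highest or lowest for all members. Mutant 4 had the highest level of 5 members (*Cd207*, *Clec4n*, *Clec4a2*, *Clec4a3* and *Clec4d*) and mutant 3 of 4 others (*Clec7a*, *Clec4a1*, *Clec4e* and *Clec10a*), whereas mutant 2 had the lowest level of 5 and the highest of none. Mutant 3, whose *Smad3* level was closest to the controls, had the lowest level of no member. Among the controls, mouse 2 was highest for 5 members and mouse 4 lowest for 5. The calls of *Cd207*, *Clec4n*, *Clec7a*, *Clec4a1*, *Clec4a3*, *Clec12a* and *Clec10a* were kept in all 14 alternative fits. Since this contrast chose the members, a kept or lost call of any member describes the fits and is no test of a difference.

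To compare levels between genes, counts were divided by exon length and scaled to TPM. In the controls *Clec4a3* led with a mean of 143 TPM, followed by *Clec4a2* with 56.4 TPM and *Clec7a* with 12.7 TPM, and these 2 steps were the only ones at which the ranges of neighbouring genes did not overlap. The other 7 genes lay between 6.40 TPM for *Clec12a* and 1.01 TPM for *Clec4d*, and *Cd207* was sixth with 4.25 TPM. In the mutants *Cd207* was first with 2622 TPM, the 43rd highest level among all tested genes, followed by *Clec4n* with 374 TPM, *Clec4a3* with 325 TPM and *Clec4a2* with 84.96 TPM. *Clec4a1* (68.6 TPM), *Clec7a* (62.9 TPM) and *Clec12a* (50.3 TPM) overlapped with their neighbours in this order, and *Clec4d* (10.7 TPM), *Clec10a* (10.3 TPM) and *Clec4e* (2.90 TPM) came last. Ranges were apart between *Cd207* and *Clec4n*, *Clec4a3* and *Clec4a2*, *Clec12a* and *Clec4d*, and *Clec10a* and *Clec4e*. The most abundant receptor transcript per length was thus one of the DCIR group in the controls and langerin in the mutants.

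The 10 genes together made up 205 to 241 CPM in the controls and 2167 to 3747 CPM in the mutants. *Cd207* supplied 0.757% to 2.15% of this sum in the controls and 65.8% to 70.4% in the mutants. Without *Cd207* the sums were 202 to 239 CPM and 741 to 1207 CPM, so the groups were also apart in the sum of the other 9 genes.

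The whole libraries also differed in marker transcripts of cell types. All 12 markers of homeostatic microglia fell, with a summed level of 40628 to 61048 CPM in the controls and 5861 to 8386 CPM in the mutants, so the markers of the sorted cell type were present in every library but lower in the mutants. They include *Cx3cr1* (log2 fold change -2.33), whose locus carries the Cre. If the controls lack Cre, the deletion and the insertion cannot be told apart for this gene. Of 11 markers of border-associated macrophages that are not members, 8 rose, and their sum was 73.3 to 122 CPM in the controls and 1747 to 2599 CPM in the mutants. Of these calls *Folr2* was lost in 6 and *Mgl2* in 1 of the 8 fits without 1 mouse. This list shares *Mrc1*, *Mgl2* and *Cd209f* with the wider lectin family below, and *Lyve1*, one of its defining markers, did not pass the test (0.336 to 1.80 CPM and 1.34 to 6.68 CPM, adjusted p = 0.109). Of 13 neutrophil markers none rose and 3 fell (874 to 3236 CPM and 407 to 968 CPM in sum), with *S100a8* (adjusted p = 0.454) and *Ly6g* (adjusted p = 0.365) among those that did not pass. The calls of *Camp* and *Ltf* were lost in 5 and 7 of the 8 fits without 1 mouse (adjusted p of up to 0.0824 and 0.0883), and the log2 fold change of *Ltf* went from -2.45 to -1.67 without control 2. The remaining gene that fell was *Csf3r*, named here after its values were seen. It went from 312 ± 68.0 to 62.6 ± 7.98 CPM (-2.32, adjusted p = 1.4e-04) and kept its call in all 14 alternative fits. One of 12 monocyte markers rose, *Itgal*, with sums of 519 to 1274 CPM and 690 to 1293 CPM, and *Ccr2* (adjusted p = 0.397) and *Ly6c2* (adjusted p = 0.988) did not pass. None of 10 tested dendritic cell markers rose and 1 fell, *Fscn1*, with sums of 151 to 203 CPM and 44.6 to 57.7 CPM. Without *Fscn1*, which was left out in a step added after its values were seen, the sums overlapped at 25.5 to 57.6 CPM and 35.5 to 50.9 CPM, and *Flt3*, *Zbtb46* and *Cd209a* were at no more than 25.2 CPM in any mouse. Of 12 lymphocyte markers 3 rose, with sums of 72.9 to 124 CPM and 130 to 239 CPM, and these calls were lost in 1 (*Cd3e*), 1 (*Nkg7*) and 7 (*Trac*) of the 8 fits that left out 1 mouse (adjusted p of up to 0.0573, 0.0504 and 0.102), while *Cd79a* was at 4.70 to 13.8 CPM in all mice. Of 9 tested markers of other brain cells none rose and 1 fell, *Pdgfrb*, a marker of pericytes, from 1.47 to 16.4 CPM in the controls to 0.0276 to 1.19 CPM in the mutants (-4.91, adjusted p = 0.0275), a call lost in 6 of the 8 fits without 1 mouse (adjusted p of up to 0.07). Without mutant 2 its log2 fold change was -7.18. The sums of these markers, most of which *Mbp* supplied, overlapped at 539 to 4017 CPM and 1029 to 3374 CPM. The part that any of these cells had in the receptor levels was not tested.

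**Figure D2:**
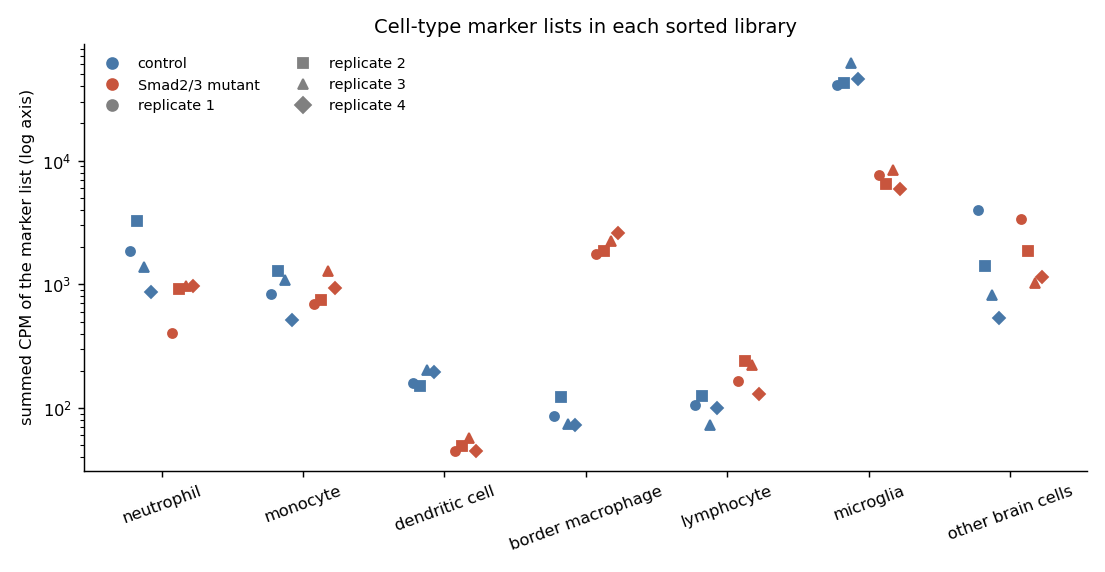
Summed CPM, on a log axis, of 7 lists of cell-type markers in each control mouse (blue) and each *Smad2/3* mutant mouse (red), with the mouse number as the symbol and the members of the receptor set left out. The microglia sums are lower and the border macrophage sums higher in all 4 mutants, the dendritic cell sums are lower through *Fscn1*, the lymphocyte sums are also higher but by little (124 CPM in the highest control and 130 CPM in the lowest mutant), and the neutrophil, monocyte and other brain cell sums overlap.

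Langerhans cells are the cells for which *Cd207* is best known, and 17 other genes used to describe them were examined, all of which were tested. Of these, 4 rose and 4 fell, with a median log2 fold change of 0.021. Called higher were thus 23.5% beside 4.36% of all tested genes, and called lower 23.5% beside 7.97%. *Runx3*, a transcription factor required for Langerhans cells, rose from 3.25 ± 1.83 to 94.9 ± 38.6 CPM (log2 fold change 4.87, adjusted p = 4.1e-04). *Ahr*, which encodes the aryl hydrocarbon receptor, rose from 2.06 ± 1.59 to 25.9 ± 8.53 CPM (3.65, adjusted p = 0.00856), and *Id2*, a regulator of Langerhans cell development, from 355 ± 49.998 to 1576 ± 467 CPM (2.15, adjusted p = 6.4e-04). The fourth gene to rise was *Axl*, a receptor for apoptotic cells, from 17.9 ± 5.59 to 461 ± 82.7 CPM (4.68, adjusted p = 4.2e-05). *Ptgs1* fell from 865 ± 148 to 279 ± 40.2 CPM (-1.63, adjusted p = 6.3e-04) and *Csf1r* from 8126 ± 1939 to 3244 ± 889 CPM (-1.32, adjusted p = 0.00998). *Tgfbr1* fell from 507 ± 45.9 to 129 ± 13.7 CPM (-1.97, adjusted p = 8.6e-05) and *Tgfbr2* from 338 ± 82.4 to 170 ± 49.4 CPM (-0.99, adjusted p = 0.0381). *Axl* and the 4 that fell are named here after their values were seen. *Tgfbr2* lost its call in 6 of the 8 fits without 1 mouse (adjusted p of up to 0.102). The adhesion molecules of Langerhans cells in the epidermis were low, *Epcam* at 0 to 1.07 CPM in the controls and 0 to 2.59 CPM in the mutants (adjusted p = 0.658) and *Cdh1*, which encodes E-cadherin, at 0 to 1.79 CPM and 1.21 to 3.31 CPM (adjusted p = 0.471).

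The genes whose centred log2 levels over the 8 mice differed least from those of *Cd207* were *Vsig4* (root mean square difference 0.53 on the log2 scale), *Mmp13* (0.80) and *Gm14221* (1.04). Their log2 fold changes were 9.85, 10.2 and 9.32, so the measure mainly picks genes with a similar step between the groups. Whether levels moved together among the mice of a group was not tested. *Vsig4*, a complement receptor of tissue macrophages, was at 0.374 ± 0.375 CPM in the controls and at 350 ± 57.5 CPM in the mutants. For *Clec7a* the closest were *Slfn2*, *Aph1b* and *Lyz2*, at differences of 0.20, 0.20 and 0.21. *Lyz2*, which encodes the lysozyme of macrophages, was much more abundant than *Clec7a*, at 1653 ± 556 CPM in the controls and 10544 ± 1965 CPM in the mutants.

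The wider family of genes with a C-type lectin domain was examined from a list of 75 names, 74 of which were found and 45 of which passed the filter. Of these, 10 rose, 2 fell and 33 did not pass the test, so 22.2% were called higher beside 4.36% of all tested genes, and 4.44% were called lower beside 7.97%. The median log2 fold change of the 45 was 1.06. In 13 of the 45 every mutant lay above every control, which held for 9.04% of all tested genes. This list too was chosen with earlier results of these data known, so its shares are a description and no test.

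*Clec4f*, a galactose-binding receptor best known from the Kupffer cells of the liver, had the largest rise of this list. It was at 0.0258, 0.884, 0 and 0.0537 CPM in the controls and at 92.6, 86.7, 75.0 and 52.3 CPM in the mutants (log2 fold change 8.28, SE 0.98, adjusted p = 9.1e-04). The controls held 37 counts in all, most of them in mouse 2, and the mutants 12182, a ratio of 315 with an exact 95% counting interval of 228 to 447. Without control 2 the log2 fold change was 11.3, and it was 7.88 or more in all fits that left out 1 mouse. *Mrc1*, the mannose receptor of macrophages, rose from 11.1 ± 4.03 to 328 ± 65.0 CPM (4.88, adjusted p = 4.8e-05). *Cd93*, an adhesion receptor of myeloid and endothelial cells, rose from 1.57 ± 0.884 to 58.7 ± 12.2 CPM (5.22, adjusted p = 1.1e-04).
*Klra2*, an inhibitory receptor of the Ly49 family, rose from 2.25 ± 0.874 to 31.9 ± 8.27 CPM (3.82, adjusted p = 2.8e-04), and *Thbd*, which encodes thrombomodulin, from 4.74 ± 2.79 to 19.6 ± 5.33 CPM (2.04, adjusted p = 0.0159). *Cd72*, another inhibitory receptor, rose from 13.6 ± 2.71 to 160 ± 44.5 CPM (3.56, adjusted p = 7.8e-05), but its exons overlap those of *Tesk1* on the other strand, and reads of the 2 genes cannot be told apart without strand. *Mgl2* (1.75, adjusted p = 0.0186) and *Cd69*, an early activation marker of leukocytes (1.52, adjusted p = 0.0401), rose less. *Mgl2* lost its call without control 3 (adjusted p = 0.0536), and *Cd69* in 5 of the 8 fits that left out 1 mouse, namely controls 3 and 4 and mutants 1, 2 and 3 (adjusted p from 0.0296 to 0.101).

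The 2 genes that fell were *Clec2h*, which encodes a ligand of natural killer cell receptors, from 1.38 ± 0.665 to 0.0326 ± 0.0353 CPM (-5.28, adjusted p = 0.00627, and -6.15 without mutant 4), and *Layn*, a hyaluronan receptor, from 11.4 ± 2.53 to 4.59 ± 1.09 CPM (-1.31, adjusted p = 0.0173, and 0.0541 without control 3). *Clec5a*, an activating receptor that signals through DAP12, was at 87.4 ± 18.004 and 69.4 ± 14.8 CPM with overlapping groups (-0.33, SE 0.21, adjusted p = 0.33). *Cd209f* differed widely among the mutants, at 4.44, 10.1, 0 and 0.717 CPM against 0.494 to 0.981 CPM in the controls, and did not pass the test (2.36, SE 1.29, adjusted p = 0.267). *Clec9a*, a marker of cross-presenting dendritic cells, was below the filter, with 98 of its 105 counts in 1 mutant and 7 in 1 control.

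**Figure D3:**
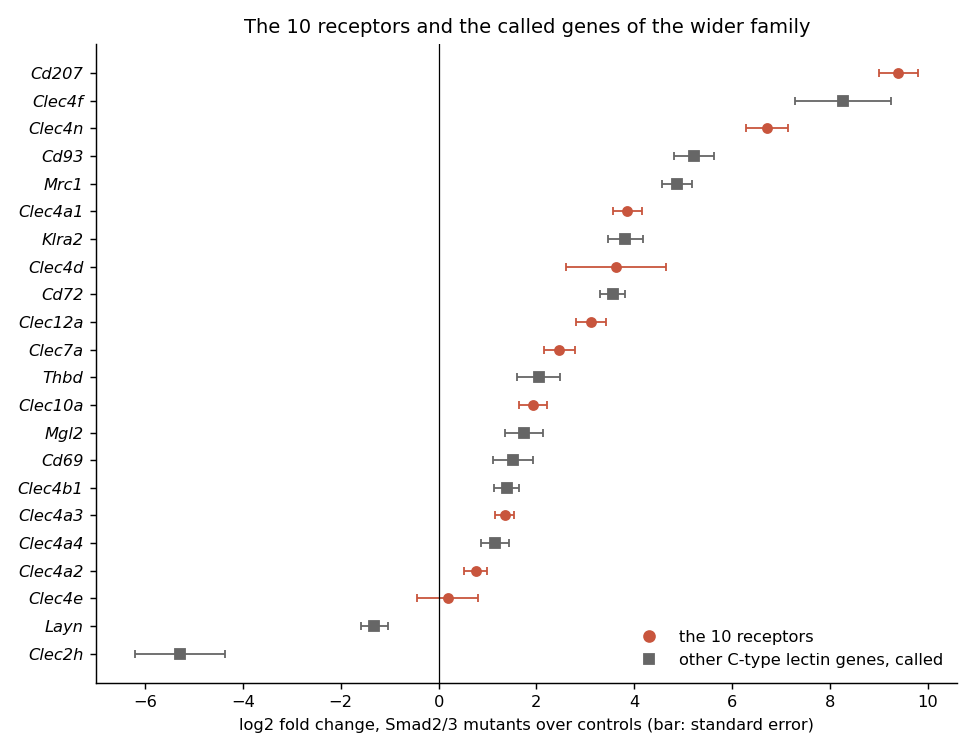
Log2 fold change of *Smad2/3* mutants over controls, with its standard error as a bar, for the 10 receptors (red circles) and for the 12 other C-type lectin genes that were called (grey squares), in order of size. *Cd207* is at 9.40 and *Clec4f* at 8.28 at one end, *Clec4e* lies at 0.18 with a bar across 0, and only *Layn* and *Clec2h* lie below 0.

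Neighbouring genes were examined within 250 kb of the members. Around the *Clec4* cluster (chromosome 6, 122671848 to 123539870) 12 genes that are not members were tested, of which 3 rose and none fell. Of all tested genes 4.36% were called higher and 7.97% lower. The 3 that rose were *Clec4a4* and *Clec4b1*, which lie between *Clec4a3* and *Clec4a2*, and the processed pseudogene *Gm44147*. *Clec4b1*, an activating DCIR-like receptor gene, rose from 11.1 ± 1.64 to 29.2 ± 10.3 CPM (1.39, adjusted p = 0.00911). *Clec4a4* rose from 10.2 ± 1.58 to 22.7 ± 8.38 CPM (1.15, adjusted p = 0.0311), and lost its call in the 6 fits that left out any 1 control or mutant 3 or 4 (adjusted p of up to 0.0915). *Gm44147* (log2 fold change 6.14, adjusted p = 2.1e-04) shares 11 of its 45 50-base words with *Clec4n* and is therefore uncertain. Along the cluster the log2 fold changes of the lectin genes were 3.86 for *Clec4a1*, 1.35 for *Clec4a3*, 1.15 for *Clec4a4*, 1.39 for *Clec4b1*, 0.76 for *Clec4a2*, 6.71 for *Clec4n*, 3.63 for *Clec4d* and 0.18 for *Clec4e*, so that genes next to each other had very different values.

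The other 3 neighbourhoods were chosen after the values were seen. *Clec4f*, which starts 26.7 kb before *Cd207* on the chromosome, was the only gene called among 14 tested neighbours of *Cd207*. *Cd69* was the only one among 12 around *Clec7a* and *Clec12a*. *Mgl2* was the only one among 22 around *Clec10a*, and its own reads share sequence with that member. Of all tested genes 12.3% were called in either direction, and nothing is read from these counts of neighbours.

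**Figure D4:**
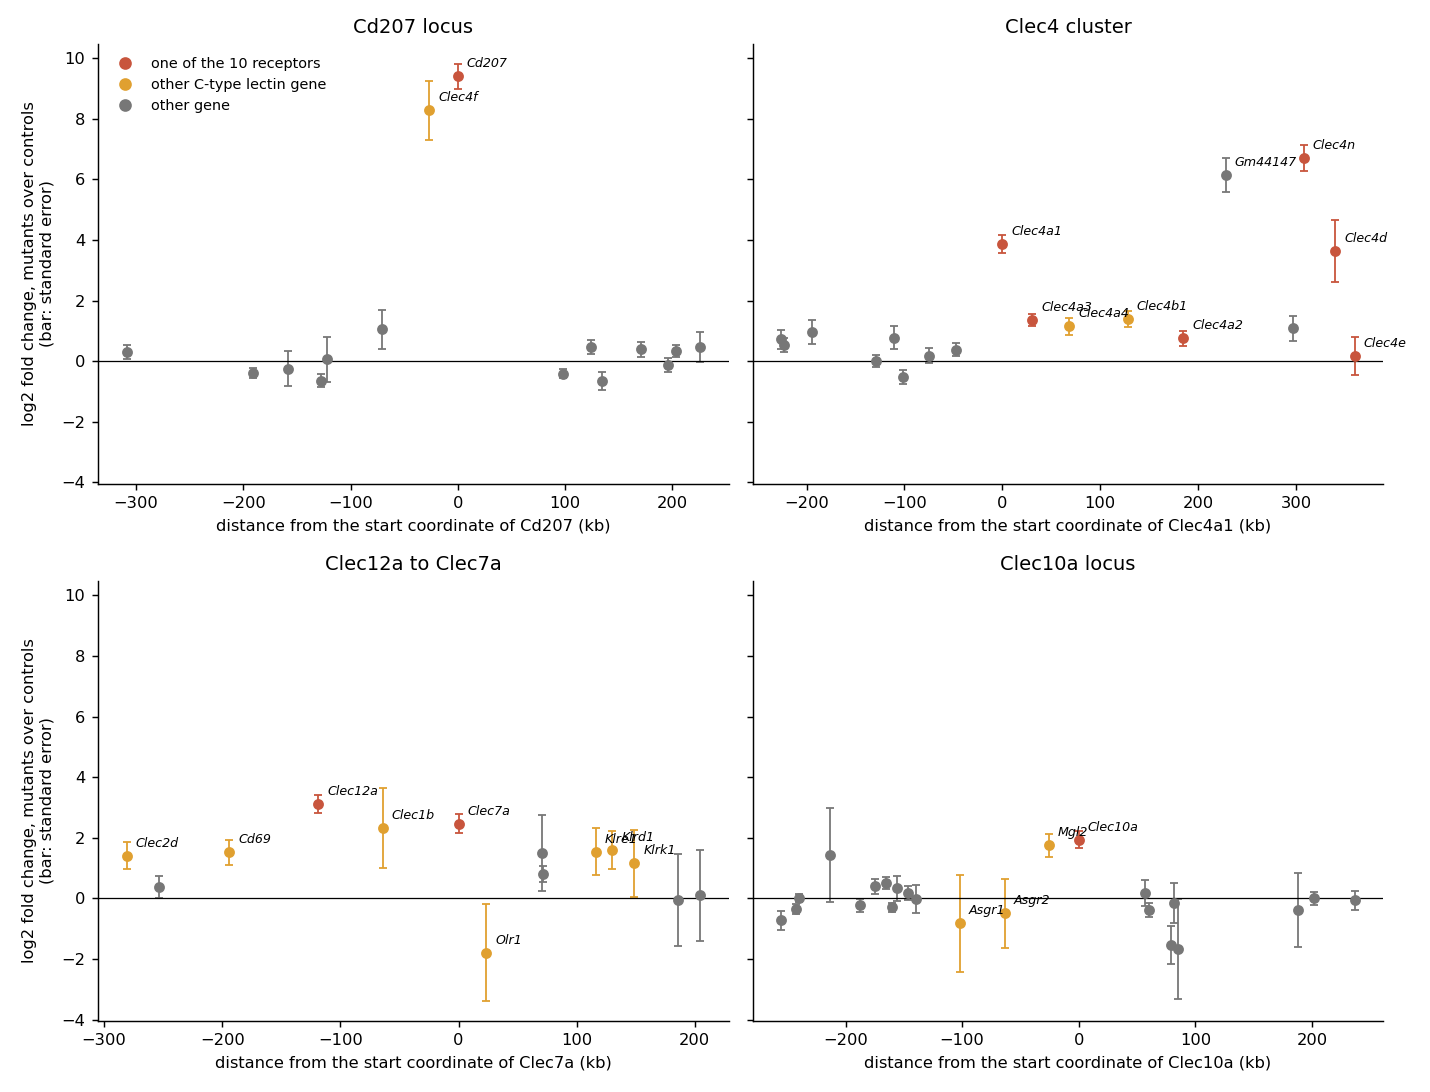
Log2 fold change of *Smad2/3* mutants over controls, with its standard error as a bar, against the distance in kb from the start coordinate of *Cd207* (top left), *Clec4a1* (top right), *Clec7a* (bottom left) and *Clec10a* (bottom right), for every tested gene reaching within 250 kb of the receptors. Red points are the 10 receptors, yellow points other C-type lectin genes and grey points all other genes, and the highest values belong to lectin genes and to the pseudogene *Gm44147*, which shares sequence with *Clec4n*.

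A list of 32 adaptors, kinases and effectors that act behind activating or inhibitory C-type lectin receptors was examined, and all were tested. Not every one of the 10 members uses all of them. One rose, 15 fell and 16 did not pass the test, and the median log2 fold change was -0.76. Between 10 and 13 genes were called lower when single mice were left out. Called lower were thus 46.9% of the list beside 7.97% of all tested genes. The list was chosen with earlier results of these data known, so these shares are a description and no test. The receptor adaptors themselves were abundant in both groups. *Fcer1g*, the partner of dectin-2 and Mincle, was at 1099 ± 272 and 1309 ± 271 CPM (0.25, SE 0.23, adjusted p = 0.517), and *Tyrobp*, which encodes DAP12, at 1367 ± 304 and 1384 ± 222 CPM (0.02, SE 0.20, adjusted p = 0.971).

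Downstream of the adaptors, *Syk* was at 134 ± 41.8 CPM in the controls and 83.8 ± 23.4 CPM in the mutants, with overlapping groups (-0.67, adjusted p = 0.131), and passed the test in 1 of 14 alternative fits, that with the replicate number as a block. *Card9* fell, from 49.1, 99.4, 148 and 72.9 CPM to 30.7, 31.1, 25.6 and 22.9 CPM, with every mutant below every control (-1.74, SE 0.32, adjusted p = 0.00774). *Plcg2*, the phospholipase activated by SYK, fell from 176 ± 41.7 to 49.4 ± 19.4 CPM (-1.83, adjusted p = 0.00605), and *Pik3r5*, a regulatory subunit of PI3Kγ, from 143 ± 47.6 to 25.5 ± 5.71 CPM (-2.49, adjusted p = 6.0e-04). Of the phosphatases that inhibitory receptors recruit, 2 fell and *Ptpn11*, which encodes SHP-2, did not pass the test (43.9 ± 11.4 and 62.7 ± 7.86 CPM, 0.52, adjusted p = 0.138). *Inpp5d* went from 527 ± 138 to 134 ± 28.0 CPM (-1.97, adjusted p = 9.7e-04) and *Ptpn6* from 400 ± 74.9 to 219 ± 32.1 CPM (-0.87, adjusted p = 0.014). The single gene to rise was *Vav3*, a guanine nucleotide exchange factor, from 2.88 ± 1.52 to 20.8 ± 6.88 CPM (2.85, adjusted p = 0.0032).

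**Figure D5:**
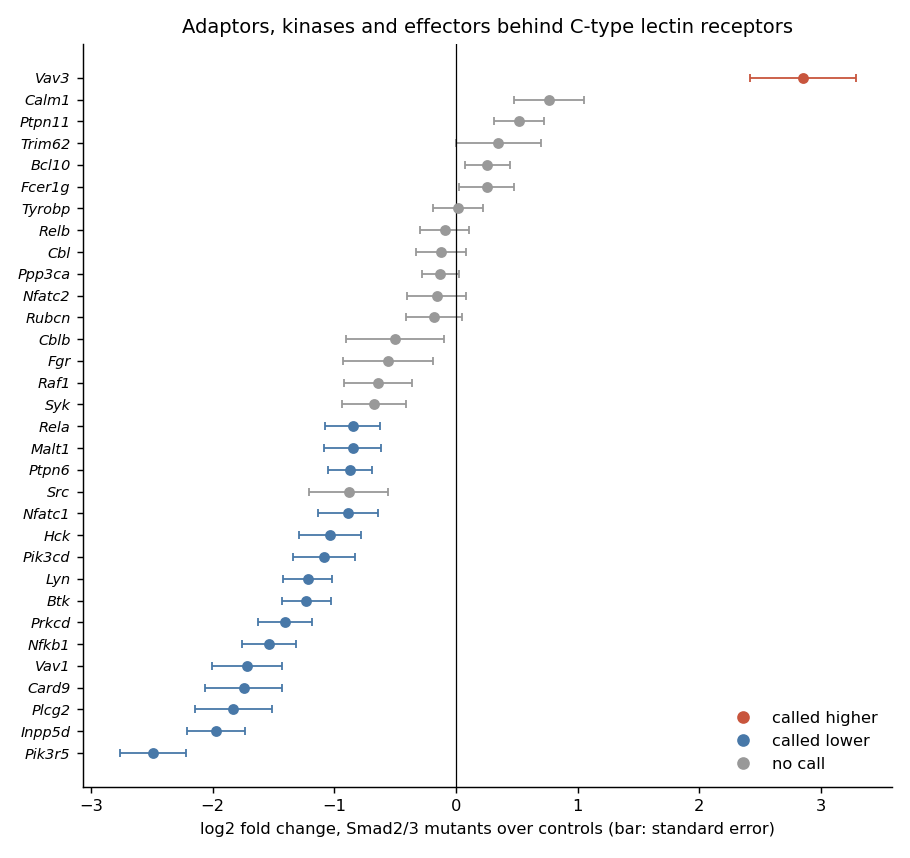
Log2 fold change of *Smad2/3* mutants over controls, with its standard error as a bar, for 32 genes that act behind C-type lectin receptors, in order of size and coloured by call. *Vav3* at 2.85 is the only gene called higher, 15 genes from *Pik3r5* at -2.49 upward are called lower, and the adaptor genes *Fcer1g* and *Tyrobp* lie near 0.

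Of 17 genes that activating receptors such as dectin-1, dectin-2 and Mincle are known to induce, 15 were tested, of which 6 rose, 1 fell and 8 did not pass. Called higher were thus 40% of the tested list beside 4.36% of all tested genes, and called lower 6.67% beside 7.97%. As with the other lists, the choice was made with earlier results known, so these shares are a description and no test. Other routes also induce these genes, and the part that the receptors had in their levels was not tested. Chemokines for neutrophils rose, *Cxcl1* from 2.26 ± 1.61 to 106 ± 49.8 CPM (5.55, adjusted p = 0.00135) and *Cxcl2* from 52.2 ± 13.3 to 1466 ± 650 CPM (4.81, adjusted p = 9.8e-05). *Il1b* rose from 44.5 ± 24.4 to 278 ± 174 CPM (2.64, adjusted p = 0.0147, and 0.0516 without control 3), with mutants 3 and 4 at 430 and 426 CPM and mutants 1 and 2 at 122 and 133 CPM. *Il23a*, which encodes a subunit of interleukin-23, was near the limit of detection, with 2 counts in the controls and 117 in the mutants, a ratio of 55.9 with an exact 95% counting interval of 15.1 to 467 (log2 fold change 5.52, adjusted p = 0.0147). Both control counts were in mouse 3, and without it the fitted value, which then depends on the prior count, was 7.91. *Egr2*, a transcription factor gene that dectin-1 induces through calcium and NFAT, fell from 96.9 ± 55.0 to 15.5 ± 6.42 CPM (-2.64, adjusted p = 0.00606).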

How the data were processed

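Microglia of 4 *Smad2/3* mutant and 4 control mice were analysed, as grouped by the sample labels. According to the Methods, the authors isolated cells on a Percoll gradient, sorted them, mapped reads to mm10 using Rsubread and made gene counts using featureCounts, and these deposited counts were used here as raw values. The Methods describe polyA-selected NEBNext libraries read from both ends, whereas the labels name Nextera XT libraries read from 1 end, and both call them unstranded. The submitters' processing notes name DESeq2 1.28. Another deposit is named in the Methods for the *Smad2/3* data, so the match of these libraries to the paper rests on genotype and cell type. The authors' own table of fold changes and p-values was not used. No column of per-sample values was left out.

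Genes reaching 10 counts in 4 or more libraries were tested with edgeR 4.0.16 in R 4.3.3 (TMM, glmQLFit, glmQLFTest, no block), with Benjamini-Hochberg adjustment and a threshold of 0.05, and the standard error was the size of the log2 fold change divided by the square root of F. The biological coefficient of variation was 0.542. The labels do not say that samples of a group are separate animals or cultures, so p-values measure the spread between these samples. TPM used GENCODE M21 exon lengths. Symbols and positions came from GENCODE M21, which matched 55394 of 55573 identifiers. On simulated counts with 100 genes changed by 2 and 100 by 4 on the log2 scale among 20153, edgeR recovered 43% and 76%, and 5.56% of its 126 calls were false, while DESeq2 1.42.0 recovered 67% and 91%, with 33.6% of 238 calls false. The simulated counts were drawn with the dispersions that edgeR had fitted to these data. Intervals on counts are exact and cover counting error only, since reads lacking molecular identifiers can copy 1 molecule.

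The members and gene lists were chosen with earlier results of these data known. Named were all members, *Smad2*, *Smad3*, *Xist* and *Ddx3y*, the called family genes with the 8 largest changes each way and 7 further ones, 6 signalling genes and the 4 largest called changes each way, the 4 largest of the induced genes each way, 5 Langerhans cell genes, called genes around the *Clec4* cluster, 10 markers of other cells, and the 3 genes nearest to *Cd207* and to *Clec7a*. Alternatives were DESeq2, RLE factors, library totals, no filter, a stricter filter (10 counts in all 8 libraries), a block for the replicate number, and leaving out each mouse in turn. Tables and plots were made in Python 3.11.15 (matplotlib 3.10.9, scipy 1.17.1, pandas 2.3.3, numpy 2.4.6, Biopython 1.88).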

Additional observations from a re-analysis of the deposited data

Results flagged for a closer look

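In 8 cases a single library stood apart from the other 3 of their group by Dixon's test, among 160 groups of 4 looked at over 80 genes, where chance flags about 1 group in 20. Control 2 was highest for *Clec4f*, at 0.884 CPM beside 0 to 0.0537 CPM in the other controls, for *Ly6g*, a neutrophil marker, at 12.7 CPM beside 2.01 to 3.38 CPM, and for *Cd163*, a scavenger receptor of macrophages, at 5.44 CPM beside 2.55 to 2.65 CPM. Control 3 was highest for *Il23a*, at 0.0559 CPM beside 0 in the others, and for *Mmp13*, at 0.224 CPM beside 0 to 0.0258 CPM. Mutant 3 was highest for *Runx3*, at 153 CPM beside 75.0 to 76.2 CPM, and for *Flt3*, a dendritic cell marker, at 5.43 CPM beside 0.303 to 0.993 CPM. Mutant 2 was highest for *Pdgfrb*, at 1.19 CPM beside 0.0276 to 0.111 CPM. None of the 10 receptors was among them.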

How the results depend on the processing

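Every named gene kept its direction where it was called: over 194 genes and 2674 alternative values, 2512 stayed on the same side of the threshold, 116 lost and 46 gained a call, and 0 reversed. Over the whole table, 2485 genes were called, against 4210 with DESeq2 (1793 higher and 2417 lower). DESeq2 also made more false calls on simulated counts, but these were drawn with edgeR's dispersions and with 200 of 20153 genes changed. They therefore do not show how many of the DESeq2 calls in these data are false. With single mice left out the count of called genes ran from 1567 to 2499, and leaving out control 3 (1567) or control 2 (1572) moved it by over 1.5 times. The cause was not tested. In the fits without 1 mouse, 7 to 8 members, 7 to 10 other family genes and 1 to 2 signalling genes were called higher. So were 5 to 7 induced genes and 2 to 3 genes around the *Clec4* cluster. Called lower were 1 to 2 other family genes, 10 to 13 signalling genes and 1 to 2 induced genes. Every such count of signalling genes called lower was thus below the 15 reported. Library totals moved the median log2 fold change of all genes from 0.011 to 0.13, which is small beside the changes of the called members. The replicate numbers 1 to 4 were not taken as pairs, since same-numbered mice correlated in their deviations at 0.166, 0.018, 0.144 and 0.114 and the labels do not say what the numbers mark, although 3 of 4 mutants correlated best with the control of their own number. A fit with the replicate block called 2383 genes, 2001 of them shared with the fit without it, *Clec4a2* and *Syk* gained a call, and *Clec4d*, *Mgl2*, *Cd69*, *Layn*, *Il1b*, *Cd3e*, *Trac*, *Camp* and *Folr2* lost theirs, among the genes named in the text. How far differences between mice, and how far depth, limit the precision of the members was not tested. *Clec4d* had only 0 to 78 counts per control library.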
